A study of Sus scrofa with 6 samples.

Results

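The nuclear genes of oxidative phosphorylation encode most subunits of the mitochondrial respiratory chain and of the ATP synthase. They were followed here in pig oocytes (Sus scrofa) matured with and without malathion, an organophosphate insecticide. Members were taken by pig gene symbol, with the subunit prefixes NDUFA, NDUFB, NDUFC, NDUFS, NDUFV, UQCR, COX4I, COX5, COX6, COX7, COX8 and ATP5 and the genes CYC1, SDHA, SDHB, SDHC and SDHD, leaving out the NDUFAF assembly factors and the inhibitor ATP5IF1. This gave 64 of the 25880 genes counted, with 28 in complex I, 4 in complex II, 7 in complex III, 15 in complex IV and 10 in complex V. NDUFA4 and its paralog NDUFA4L2 were placed with complex IV, where the NDUFA4 protein sits. A further 8 genes of the rule (NDUFA1, NDUFA7, NDUFA13, NDUFC1, UQCRB, COX6C, ATP5MC2 and ATP5MG) had no entry in the counts. NDUFS7, ATP5F1B, COX6B1 and COX8C were not among the members either. Subunit genes with no matched symbol were missed, so the sums below need not cover all nuclear subunits.

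RNA-seq had been done on 6 libraries of mature (MII) oocytes, arrested at the second meiotic metaphase, 3 from oocytes exposed to 1 mM malathion during maturation in culture and 3 from control oocytes. All oocytes came from slaughterhouse ovaries, from antral follicles of 3 to 6 mm, and no genotype, breed or age was given. Malathion came from a 0.75 M stock in DMSO, and the labels do not say whether control medium held DMSO. They also do not give the oocytes per library or say whether replicates were separate cultures, so every p-value here is set against a spread among libraries that may be technical only.

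In oxidative phosphorylation, complex I takes electrons from NADH and complex II takes them from succinate, as an enzyme of the citric acid cycle. Coenzyme Q carries the electrons to complex III, cytochrome c carries them on to complex IV, and complex IV reduces oxygen to water. Complexes I, III and IV pump protons, and complex V, the ATP synthase, uses the proton gradient to make ATP. All subunits of complex II are nuclear, while the other complexes also hold subunits encoded by mitochondrial DNA. The oocyte draws on this pathway for the ATP of meiotic maturation, and it relies on mRNAs stored while it grew, because transcription is largely silent by then.

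The libraries held between 25816040 and 42312341 counts in genes, and levels are given as CPM, a gene's count over that total on the usual per-million scale. Malathion replicate 3 and control replicate 3 stood apart from the rest. They detected 8492 and 8344 genes, against 12211 to 14707 in the other libraries, although malathion replicate 3 was the deepest. Control replicate 2 stood apart more mildly. It had the highest CPM for 5836 of the 10678 genes that could be tested (54.7%). Oocyte markers summed to 76487, 52566 and 4397 CPM in malathion replicates 1, 2 and 3, against 66358, 26951 and 4471 CPM in control replicates 1, 2 and 3. BTG4 was the largest part except in malathion replicate 3, at 44538, 24612 and 521 CPM after malathion, against 34834, 7710 and 2880 CPM in control. Single markers did not move together. Of 12 markers, 4, 1 and 2 were highest in malathion replicates 1, 2 and 3, and 1, 3 and 1 in control replicates 1, 2 and 3. ZP2 and MOS, for instance, were highest in malathion replicate 3, at 2158 and 1458 CPM. Cumulus and granulosa markers (11 of 14 matched) summed to 696, 726 and 66.1 CPM in malathion replicates 1, 2 and 3, against 653, 425 and 36.1 CPM in the controls. Most of that sum was VCAN, at up to 424 CPM, and KITLG, at up to 244 CPM. CYP11A1 reached 81.6, STAR 24.99 and INHBA 17.4 CPM, each in malathion replicate 2, while FSHR, HAS2 and PTX3 were at or below 2.16 CPM and AMH was at 0 in each library. Theca, stroma, blood and endothelial markers summed to at most 15.95 CPM. All 6 cumulus and granulosa markers that could be tested had a fold change above 0 (median log2 1.37), with 0 called. So did 4974 of all 10678 genes tested. Between same-numbered libraries the direction of these 6 differed, with a median log2 ratio of −0.55 (replicates 1), 1.48 (replicates 2) and 0.19 (replicates 3). The part of other cells in the values below was not tested. In bulk libraries, fewer cells of a type and less RNA per cell cannot be told apart.

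No nuclear gene of oxidative phosphorylation passed the test between malathion and control. Of the 64 genes, 54 had enough counts to be tested. With edgeR's quasi-likelihood test and Benjamini-Hochberg adjustment, 0 of these reached 0.05, against a background of 0% (0 of 10678 genes), and the smallest adjusted p among them was 0.9998. An unadjusted p under 0.05 was found for 3 of the 54, NDUFC2, NDUFA9 and COX6A1, against a background of 3.59%. DESeq2 and limma-voom called 0 members too, with 1 member each at an unadjusted p under 0.05, against 2.13% and 1.03% of all genes. DESeq2 gave no adjusted p for 6 members, NDUFC2, NDUFA9 and COX6A1 among them, so it could not call these. The fold change was below 0 for 34 of the 54 genes and above 0 for 20, against a background of 53.4% below 0, and the median log2 fold change was −0.46, against −0.08 over all genes tested. Without control replicate 2 this turned round, with 13 genes lower and 41 higher and a median of 0.34 (0.22 over all genes tested). All genes turned too, with 37.3% lower there, against 24.1% of members. With library totals in place of TMM factors, 38 members were lower (70.4%, against 66.3% of all genes tested). The median was then −0.64, while the median of all genes moved to −0.33. CPM in the malathion and control libraries did not part for any member, as 0 of 54 had groups that did not overlap, against a background of 0.749%.

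**Figure D1:**
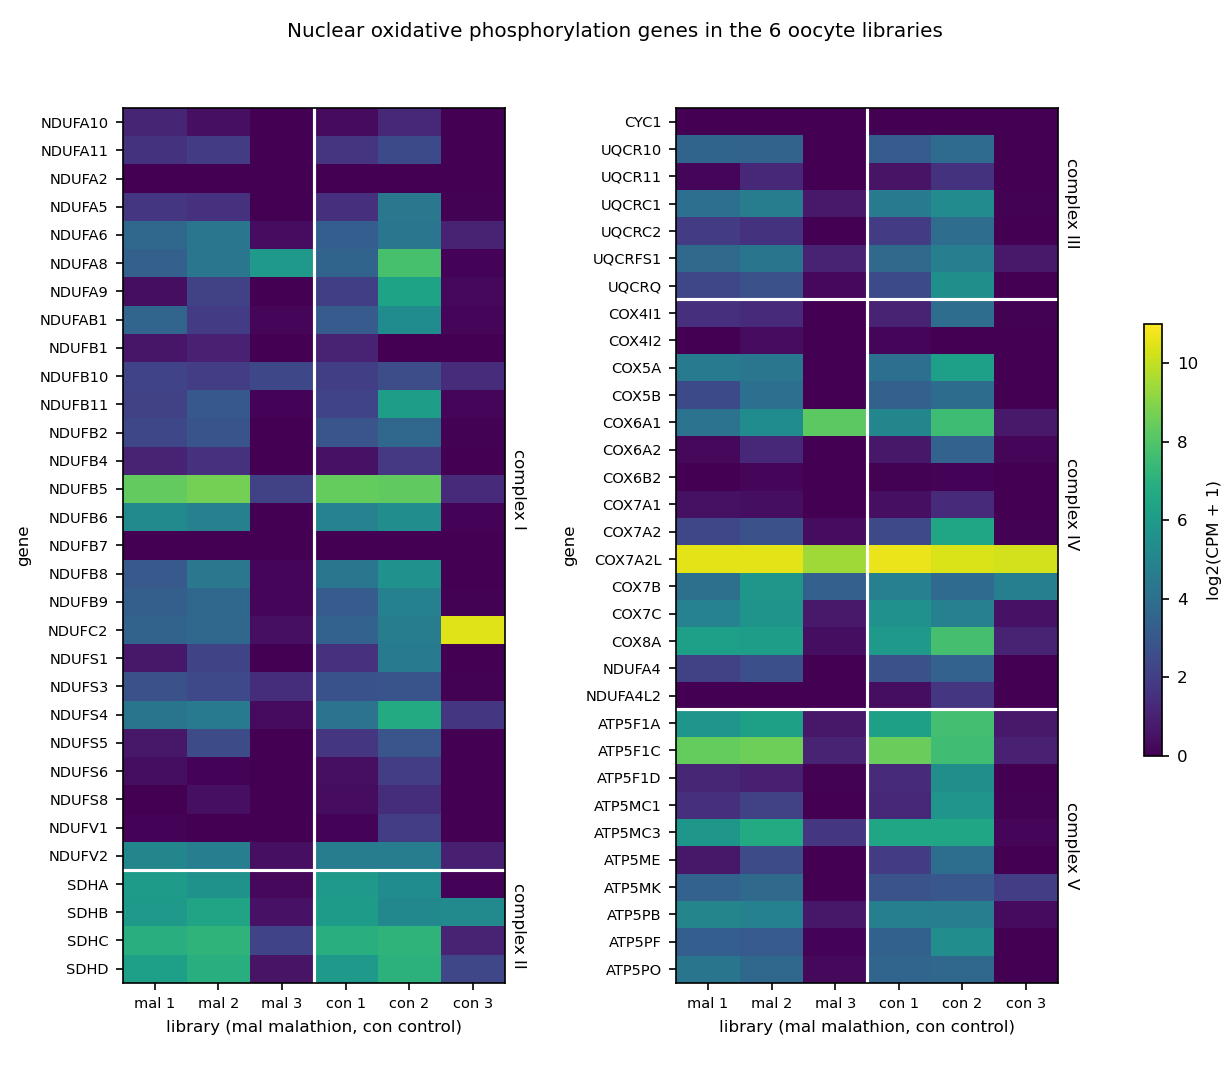
Log2(CPM + 1) of the genes reported (rows, by complex) in the 3 malathion and 3 control libraries (columns). COX7A2L is bright in each library, from 684 to 1629.7 CPM, the replicate 3 columns are dark for nearly all other genes, and NDUFC2 in control replicate 3, at 1430.0 CPM, is an exception.

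Which library was read set whether most of these genes were found. At least 1 CPM was found for 47, 52 and 11 of the 64 genes in malathion replicates 1, 2 and 3, against 50, 58 and 13 in control replicates 1, 2 and 3. Among the tested genes, 11 of 54 (20.4%) reached 1 CPM in malathion replicate 3 and 13 (24.1%) in control replicate 3, where 34.9% and 35.0% of all tested genes did. Over the 37 members with a mean of at least 10 CPM in the other 4 libraries, 32 stood below 5% of that mean in malathion replicate 3 and 31 in control replicate 3. The same held for 61.3% and 62.0% of all 5985 genes at such a mean. Control replicate 2 held the highest CPM for 38 of the 54 genes tested (70.4%), among them 19 of 23 in complex I and 6 of 6 in complex III, but 2 of 4 in complex II, 6 of 11 in complex IV and 5 of 10 in complex V.

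Summed over all 64 genes, the nuclear subunits took 3049.9, 3478 and 1076 CPM in malathion replicates 1, 2 and 3, against 3295, 4298 and 2717 CPM in control replicates 1, 2 and 3. The means were 2535 ± 1281 CPM after malathion and 3437 ± 800.2 CPM in control (SD, n = 3 each), a log2 ratio of −0.44. The groups overlapped, and an exact two-sided permutation test gave p = 0.5, where 3 against 3 libraries cannot go below 0.1. With TMM factors the log2 ratio was −1.07. None of the sums of the 5 complexes passed the test either (exact permutation p from 0.2 to 0.9, and from 0.84 to 0.9 after Benjamini-Hochberg adjustment over 6 sums). Against the control library of the same number, malathion was lower in 3 of 3 pairs for all members and complexes I, IV and V. An exact sign-flip test, which reverses the signs of the pair log2 ratios, gave p = 0.25 each, the smallest that 3 pairs allow. In replicates 3 the direction rested on single genes for complexes I and IV. Without NDUFC2, complex I was higher after malathion there, at 70.2 against 8.41 CPM. Without COX7A2L, complex IV was higher too, at 310.1 against 28.4 CPM. Complex V stood there at 4.94 against 5.16 CPM, and the intervals for counting error overlapped (4.31 to 5.66 and 4.40 to 6.05 CPM). Set against the 13 subunits encoded by mitochondrial DNA, the mitochondrial sum was 9.41, 5.36 and 12.1 times the nuclear sum in malathion replicates 1, 2 and 3, and 8.51, 13.7 and 2.06 times it in control replicates 1, 2 and 3. The 2 groups overlapped in that ratio.

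**Figure D2:**
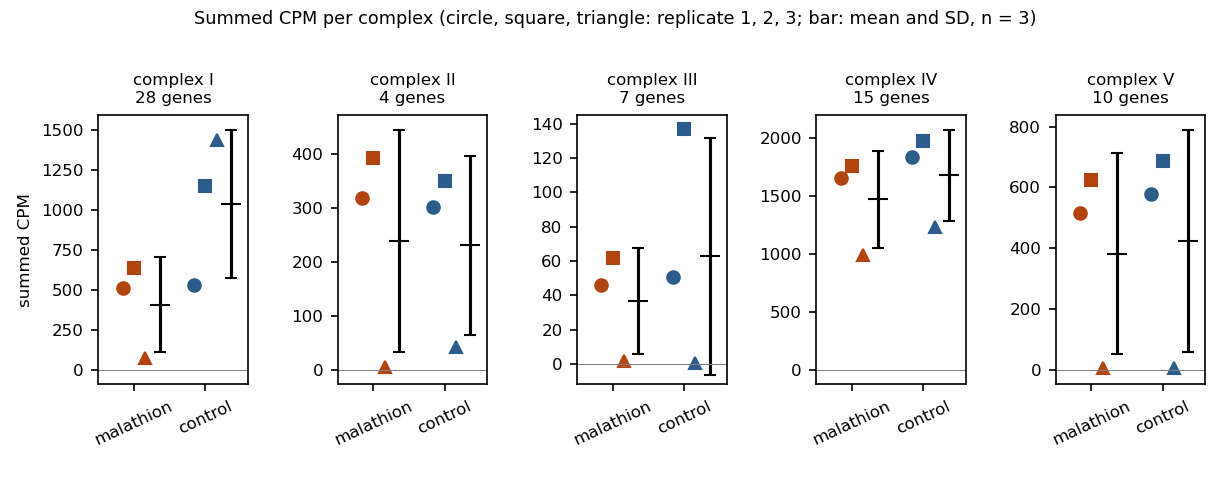
Summed CPM of the genes of each complex (y axis, linear) in the malathion and control libraries, with the mean and SD of 3 libraries. The replicate 3 libraries (triangles) lie near 0 for complexes III and V, at 2.03 and 4.94 CPM after malathion and at 0.713 and 5.16 CPM in control.

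No complex I gene passed the test, and control replicates 2 and 3 had the highest sums. The 28 genes summed to 511, 637 and 70.6 CPM in malathion replicates 1, 2 and 3, against 529, 1152 and 1439 CPM in control replicates 1, 2 and 3. In control replicate 3, 99.4% of that sum was NDUFC2, and the other 27 genes summed to 8.41 CPM there. The log2 ratio of the sums was −1.36 (exact permutation p = 0.2), −0.47 without NDUFC2, and −3.46 with TMM factors. Of the 23 genes tested, 14 had a fold change below 0 and 9 above, with a median of −0.25.

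The catalytic core of complex I carries the flavin and the iron-sulfur clusters, and none of its genes described here passed the test. NDUFV1 (ENSSSCG00000012896), which binds NADH and the flavin, had 2, 0 and 0 counts in malathion replicates 1, 2 and 3, against 2, 82 and 0 counts in control replicates 1, 2 and 3, and was too low to test. Its partner NDUFV2 (ENSSSCG00000038826), an iron-sulfur subunit, stood at 31.7, 24.7 and 0.354 CPM in the malathion libraries, against 23.4, 24.1 and 0.950 CPM in the controls. NDUFV2 was near level in 4 libraries, while 82 of the counts of NDUFV1 were in control replicate 2. NDUFS1 (ENSSSCG00000016127), the large iron-sulfur subunit, stood at 0.620, 3.71 and 0 CPM after malathion, against 1.94, 21.4 and 0 CPM in control. It was highest in control replicate 2, and the groups overlapped. NDUFS3 (ENSSSCG00000032081), another core subunit, stood at 5.54, 4.32 and 1.73 CPM after malathion, against 5.83, 6.35 and 0.0339 CPM in control. NDUFS8 (ENSSSCG00000037455), which holds a pair of iron-sulfur clusters, had at most 47 counts in any library and was not tested.

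Accessory subunits of complex I, which surround the core, held the members with the smallest p. NDUFC2 (ENSSSCG00000039494), a subunit of the membrane arm, stood at 10.4, 11.8 and 0.378 CPM in malathion replicates 1, 2 and 3, against 10.004, 23.98 and 1430.0 CPM in control replicates 1, 2 and 3. The 42146 counts in control replicate 3 set it apart from all other libraries, which had at most 650. Its log2 fold change was −9.75 ± 3.53 (SE, edgeR adjusted p = 0.9998), −6.02 with library totals alone, −1.85 with the replicate block, and −0.46 without control replicate 3. NDUFA9 (ENSSSCG00000000719), which lies between the matrix and membrane arms, stood at 0.310, 3.35 and 0 CPM after malathion, against 3.17, 82.1 and 0.170 CPM in control. It was highest in control replicate 2, and its log2 fold change of −4.09 ± 1.69 (edgeR adjusted p = 0.9998) was −1.36 without that library. NDUFA8 (ENSSSCG00000005528) stood at 9.34, 18.8 and 59.5 CPM after malathion, against 10.6, 224 and 0.0679 CPM in control. Control replicate 2 and malathion replicate 3 were its high libraries, and NDUFA8 and COX6A1 alone among the 37 members with a mean of at least 10 CPM kept over 50% of that mean in malathion replicate 3.

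Other accessory subunits differed in how they stood in control replicate 2. NDUFB5 (ENSSSCG00000011764), a subunit of the membrane arm, stood at 324, 414 and 3.33 CPM after malathion, against 341, 317 and 1.53 CPM in control. It held 63.3% and 65.0% of the complex I counts in malathion replicates 1 and 2 and 64.5% in control replicate 1, but 27.6% in control replicate 2. These are shares of counts, which were not scaled to transcript length. NDUFB6 (ENSSSCG00000011003) stood likewise at 37.8, 26.5 and 0.0236 CPM after malathion, against 28.1, 40.4 and 0.0679 CPM in control. NDUFB11 (ENSSSCG00000034487) stood at 3.33, 7.24 and 0.0709 CPM after malathion, against 3.63, 69.6 and 0.102 CPM in control. NDUFB11 in control replicate 2 was thus 14.7 times the mean of malathion replicates 1 and 2 and control replicate 1. By the same measure NDUFA5 was 9.89 times, NDUFAB1, the mitochondrial acyl carrier protein, 5.46 times, and NDUFS4, an accessory subunit mutated in Leigh syndrome in humans, 5.29 times that mean. NDUFB10 (ENSSSCG00000030328) was highest in control replicate 2 but next in malathion replicate 3, at 3.60, 2.95 and 4.28 CPM after malathion, against 3.13, 5.05 and 1.59 CPM in control. NDUFA2 and NDUFB7 had 0 counts in each library, where 3 counts, the limit that a count of 0 allows, correspond to 0.0709 to 0.116 CPM (counting error only). Whether these zeros came from the oocytes, the annotation or the counting cannot be told here.

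No complex II gene passed the test, and their sum lay between 302 and 394 CPM in the 4 libraries outside replicates 3. The 4 genes summed to 319, 394 and 4.80 CPM in malathion replicates 1, 2 and 3, against 302, 350.0 and 41.2 CPM in control replicates 1, 2 and 3. The means were 239 ± 206 CPM after malathion and 231 ± 166 CPM in control (SD, n = 3 each; exact permutation p = 0.9). None of the 4 genes was over 2-fold higher in control replicate 2 than the mean of malathion replicates 1 and 2 and control replicate 1, on the scale of CPM + 1, where 25 of all 54 members tested and 32.1% of all genes tested were.

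SDHA (ENSSSCG00000020686), the flavoprotein that oxidises succinate, stood at 67.6, 47.3 and 0.165 CPM after malathion, against 59.6, 39.8 and 0.0679 CPM in control. SDHC (ENSSSCG00000030318), a membrane anchor that binds the haem and quinone, stood at 118, 141 and 3.66 CPM after malathion, against 117, 142 and 1.12 CPM in control (log2 fold change 0.44 ± 0.97, edgeR adjusted p = 0.9998). Replicates 1 of both groups, and replicates 2 of both groups, were nearly equal for SDHC, and its log2 fold change was −0.0059 without control replicate 3. SDHD (ENSSSCG00000015034), the other anchor, stood at 73.7, 121 and 0.496 CPM after malathion, against 58.7, 134 and 4.14 CPM in control. SDHB (ENSSSCG00000020926), the iron-sulfur subunit, stood at 59.6, 85.0 and 0.473 CPM after malathion, against 67.3, 34.5 and 35.8 CPM in control. SDHB thus held 87.1% of the complex II counts in control replicate 3. Its log2 fold change was −2.24 ± 1.29 (edgeR adjusted p = 0.9998) and turned to 0.13 without control replicate 3, and to 0.077 with library totals alone.

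No complex III gene passed the test, and all 6 that were tested were highest in control replicate 2. The 7 genes summed to 46.1, 61.8 and 2.03 CPM in malathion replicates 1, 2 and 3, against 50.6, 137 and 0.713 CPM in control replicates 1, 2 and 3. The log2 ratio was −0.78 (exact permutation p = 0.7), −0.15 with TMM factors, and it turned to 0.51 without control replicate 2. CYC1 (ENSSSCG00000031918), the cytochrome c1 that passes electrons to cytochrome c, had 0 counts in each library. Whether this came from the oocytes, the annotation or the counting cannot be told here.

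UQCRC1 (ENSSSCG00000011356), a core protein of complex III, stood at 15.4, 23.7 and 0.662 CPM after malathion, against 21.4, 38.8 and 0.0339 CPM in control. UQCRFS1 (ENSSSCG00000027085), the Rieske iron-sulfur protein, stood at 12.9, 18.5 and 1.16 CPM after malathion, against 13.1, 24.8 and 0.679 CPM in control. Both were highest in control replicate 2 and lowest in a replicate 3 library. UQCRC2 (ENSSSCG00000007845), the other core protein, stood at 2.91, 2.02 and 0 CPM after malathion, against 2.84, 14.2 and 0 CPM in control (log2 fold change −1.31 ± 1.66, edgeR adjusted p = 0.9998). UQCRQ (ENSSSCG00000014289), a small subunit beside cytochrome b, stood at 4.11, 5.65 and 0.189 CPM after malathion, against 4.53, 43.3 and 0 CPM in control (log2 fold change −1.42 ± 1.496, edgeR adjusted p = 0.9998). Both fold changes turned without control replicate 2, to 0.11 for UQCRC2 and 0.79 for UQCRQ. UQCR10 stood at 8.24 to 13.5 CPM in the 4 libraries outside replicates 3, and UQCR11 at or below 2.07 CPM in each library.

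No complex IV gene passed the test, and most of the counts of the complex came from a single gene, COX7A2L. The 15 genes summed to 1656, 1762 and 994 CPM in malathion replicates 1, 2 and 3, against 1834, 1971 and 1231 CPM in control replicates 1, 2 and 3 (log2 ratio −0.19, exact permutation p = 0.5). Without COX7A2L the other 14 genes summed to 172, 265 and 310.1 CPM after malathion, against 204, 659 and 28.4 CPM in control. Of the 11 genes tested, 9 had a fold change below 0 and 2 above, with a median of −0.64. Without control replicate 2 the median was 0.27.

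COX7A2L (ENSSSCG00000008466), which joins complexes III and IV into a supercomplex, stood at 1484, 1496 and 684 CPM in malathion replicates 1, 2 and 3, against 1629.7, 1312 and 1203 CPM in control replicates 1, 2 and 3. It held 68.8% to 89.6% of the complex IV counts after malathion and 66.6% to 97.7% in control. It was high in each library. Its level in malathion replicate 3 was 46.2%, and in control replicate 3 81.2%, of the mean of the other 4 libraries. Of 4 members at 100 CPM or more in each of those libraries, only COX7A2L was within 2.5-fold of that mean in both replicate 3 libraries, while NDUFB5, SDHC and ATP5F1C were below 3% of it in each. Over all genes, 35 of 1141 at that level were within this limit (3.07%), which was chosen after the values were seen. The mean was 1221 ± 466 CPM after malathion and 1382 ± 222 CPM in control (SD, n = 3 each). On TMM factors its log2 fold change was −0.64 ± 2.30 (edgeR adjusted p = 0.9998), −0.18 with library totals alone, and it turned to 1.97 without control replicate 3.

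The other nuclear subunits of complex IV come partly as tissue isoforms, and both the broadly expressed forms and traces of the tissue forms were counted. COX6A1 (ENSSSCG00000039265), the liver-type subunit, stood at 17.5, 39.3 and 299 CPM after malathion, against 31.8, 193 and 0.679 CPM in control. Its high libraries were malathion replicate 3 and control replicate 2. Its log2 fold change was 4.92 ± 2.18 (edgeR adjusted p = 0.9998), 0.66 with library totals alone and 0.30 with the replicate block, and it turned to −1.08 without malathion replicate 3. COX6A2 (ENSSSCG00000036789), the heart and muscle form, stood at 0.194, 1.40 and 0 CPM after malathion, against 0.648, 10.1 and 0.102 CPM in control (log2 fold change −2.49 ± 1.63, edgeR adjusted p = 0.9998). COX7A2 (ENSSSCG00000004480), the broadly expressed paralog of COX7A2L, stood at 4.14, 5.73 and 0.307 CPM after malathion, against 4.43, 87.0 and 0.0339 CPM in control. Its muscle form COX7A1 (ENSSSCG00000037792) had at most 40 counts in a library and was not tested. COX4I1 (ENSSSCG00000029034), the regulatory subunit, stood at 1.82, 1.48 and 0.0236 CPM after malathion, against 1.12, 14.2 and 0.0339 CPM in control, and its lung form COX4I2 had at most 8 counts in a library. COX6B2, a testis form, had at most 3 counts in a library. Levels of the isoforms are not set against each other, since counts were not scaled to transcript length.

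COX5A (ENSSSCG00000024316), a matrix-side subunit, stood at 21.9, 19.2 and 0.0236 CPM after malathion, against 15.2, 72.8 and 0 CPM in control. COX5B (ENSSSCG00000008195), a zinc-binding subunit, stood at 4.61, 15.4 and 0 CPM after malathion, against 9.39, 13.8 and 0 CPM in control. COX8A (ENSSSCG00000013046) stood at 73.5, 70.4 and 0.331 CPM after malathion, against 61.2, 215 and 1.15 CPM in control. All 3 overlapped between the groups. COX7B (ENSSSCG00000032129) did not follow them, at 15.9, 55.7 and 9.26 CPM after malathion, against 27.1, 13.2 and 26.0 CPM in control. COX7B was thus lower in control replicate 2 than in 4 of the other libraries and kept 33.1% and 92.9% of the mean of the other 4 libraries in malathion replicate 3 and control replicate 3. COX7C stood at 28.5, 50.4 and 0.662 CPM after malathion, against 47.0, 26.7 and 0.441 CPM in control. NDUFA4 (ENSSSCG00000024313) stood at 3.52, 5.40 and 0.0236 CPM after malathion, against 5.65, 10.1 and 0 CPM in control. NDUFA4L2, a paralog induced by hypoxia in other tissues, had 0 counts in each malathion library, against 9, 64 and 0 counts in control replicates 1, 2 and 3, and was not tested.

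No complex V gene passed the test. The 10 genes summed to 517, 624 and 4.94 CPM in malathion replicates 1, 2 and 3, against 578, 688 and 5.16 CPM in control replicates 1, 2 and 3. The log2 ratio was −0.15 (exact permutation p = 0.7), and 0.080 with TMM factors. The replicates with the same number were close to each other in this sum, and the spread lay between numbers. In replicates 2 that closeness held opposite differences. ATP5F1C stood at 374 CPM after malathion against 194 CPM in control there, while the other genes summed to 250 against 494 CPM. Without ATP5F1C the log2 ratio of the sums was −0.73 (exact permutation p = 0.6). Of the 10 genes, all tested, 6 had a fold change below 0 and 4 above, with a median of −0.92, which turned to 0.28 without control replicate 2.

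In the catalytic head, ATP5F1A (ENSSSCG00000004499), the alpha subunit, stood at 54.3, 75.3 and 0.638 CPM after malathion, against 74.9, 212 and 0.679 CPM in control. ATP5F1C (ENSSSCG00000034086), the gamma subunit of the rotor, stood at 336, 374 and 1.09 CPM after malathion, against 356, 194 and 1.02 CPM in control. ATP5F1D (ENSSSCG00000035532), the delta subunit of the rotor, stood at 1.28, 0.936 and 0.0473 CPM after malathion, against 1.58, 42.6 and 0 CPM in control. Control replicate 2 was low for some and high for others, as ATP5F1C was at 0.546 times, ATP5F1A at 3.10 times and ATP5F1D at 33.7 times the mean of malathion replicates 1 and 2 and control replicate 1. The log2 fold change of ATP5F1D was −3.32 ± 1.73 (edgeR adjusted p = 0.9998), and it turned to 0.13 without control replicate 2.

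The c subunit, whose ring turns in the membrane, is encoded by several genes that give the same mature protein. ATP5MC1 (ENSSSCG00000017544) stood at 1.90, 3.35 and 0 CPM after malathion, against 1.44, 52.9 and 0.0339 CPM in control. ATP5MC3 (ENSSSCG00000015973) stood at 55.1, 105 and 2.32 CPM after malathion, against 88.3, 86.7 and 0.136 CPM in control. ATP5MC1 was high in control replicate 2 alone, while ATP5MC3 was at 1.04 times the mean of malathion replicates 1 and 2 and control replicate 1 there. The log2 fold change of ATP5MC1 was −2.84 ± 1.70 (edgeR adjusted p = 0.9998), and it turned to 0.70 without control replicate 2. The stalk subunits that hold the head in place lay in narrower ranges in the 4 libraries outside replicates 3, apart from ATP5PF. ATP5PB lay between 25.01 and 30.99 CPM and ATP5PO between 10.9 and 18.3 CPM there, while ATP5PF reached 41.4 CPM in control replicate 2. Of the small membrane subunits, ATP5MK stood at 9.92, 12.8 and 0 CPM after malathion, against 6.05, 7.01 and 3.05 CPM in control, and ATP5ME at 0.658, 4.93 and 0 CPM after malathion, against 2.91, 14.8 and 0 CPM in control.

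**Figure D3:**
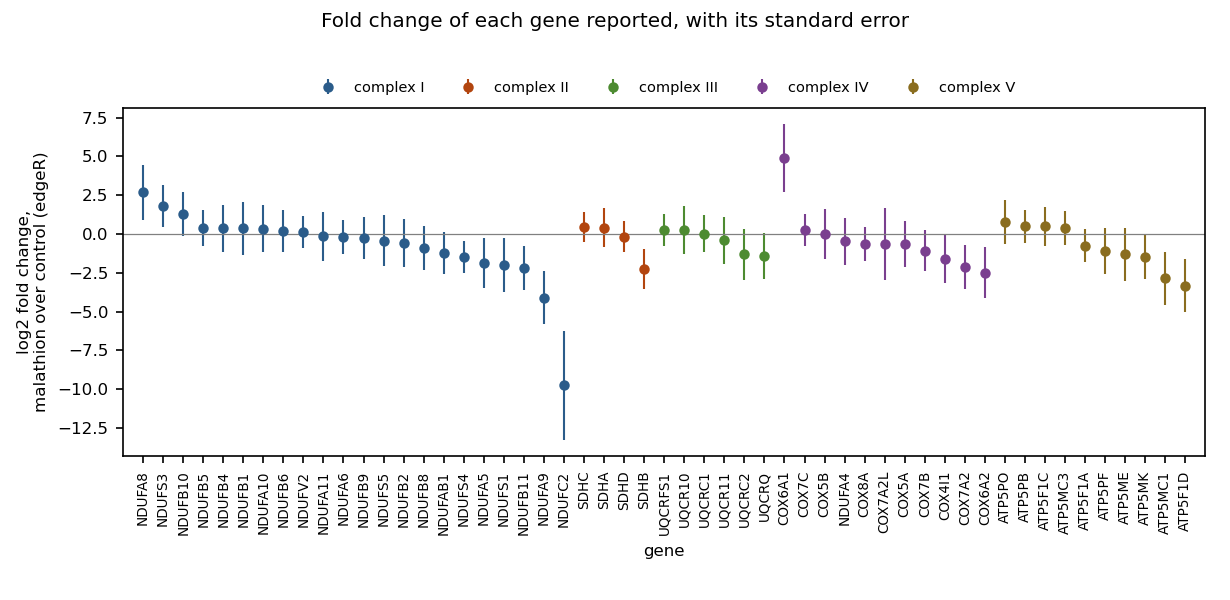
Log2 fold change of malathion over control with its standard error (y axis) for each gene tested and reported, by complex. The values run from −9.75 for NDUFC2 to 4.92 for COX6A1, and none passed the test.

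Set side by side by replicate number, the closest libraries were replicates 1. Of the 25 members with a mean of at least 10 CPM in malathion replicate 1 and control replicate 1, 24 were within 2-fold of each other on the scale of CPM + 1, and the exception was NDUFB8, at 7.51 CPM after malathion and 19.1 CPM in control. The same held for 98.5% of all 5294 genes at such a mean. In replicates 2, 19 of 39 such members were within 2-fold, against 59.5% of all 6405 genes. In replicates 3 only 6 members had such a mean, and of these COX7A2L was within 2-fold, against 38.4% of all 1610 genes. For the 54 tested members the median log2 ratio came to −0.08 (replicates 1), −0.74 (replicates 2) and 0 (replicates 3), and for all genes tested to −0.08, −0.37 and 0. With 1 library on each side these ratios carry no test.

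**Figure D4:**
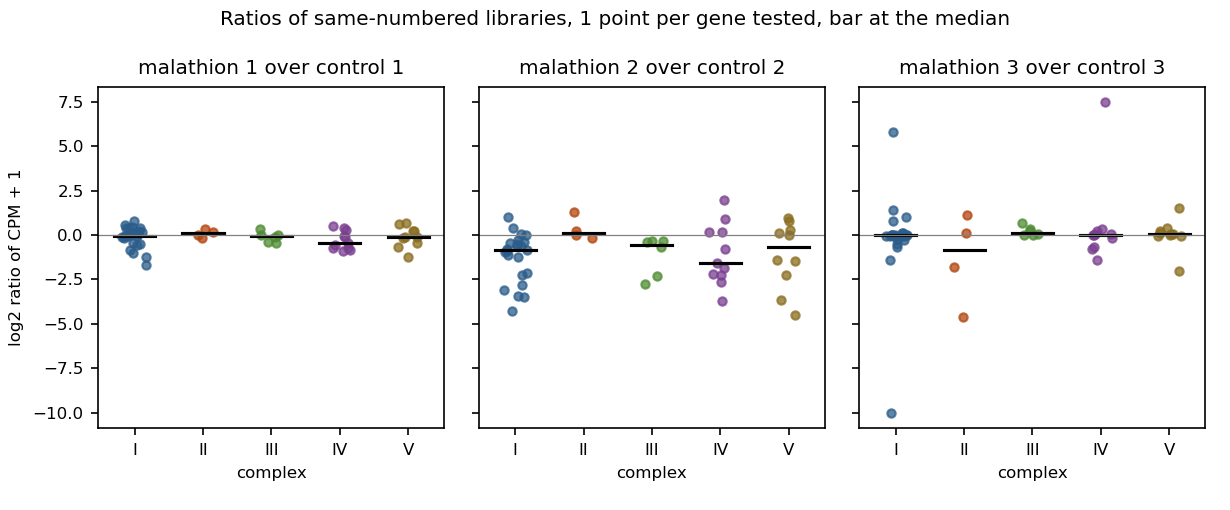
Log2 ratio of CPM + 1 between malathion and control libraries of the same number (y axis), 1 point per tested gene, by complex. Points lie between −1.67 and 0.81 in replicates 1, between −4.49 and 2.00 in replicates 2, and between −10.02 (NDUFC2) and 7.48 (COX6A1) in replicates 3.

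Without both replicate 3 libraries, malathion and control did not overlap for 9 of the 54 genes, against 25.6% of all genes tested. In these libraries NDUFV2, ATP5MK, ATP5PB and ATP5PO lay higher in malathion, and NDUFB2, NDUFS3, NDUFA4, ATP5F1D and ATP5PF lower. The share of members was below that of all genes tested, so no change is read from these 9 genes. None passed edgeR's test in these libraries, where 0 of all 11637 genes tested were called. An unadjusted p under 0.05 was found for 3 of 55 members, against 2.17% of all genes.

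Genes that build or serve the complexes showed no called change either. Of 37 assembly factors found, 27 were tested, with 11 higher, 16 lower and 0 called, at a median log2 fold change of −0.08. They summed to 1150.3, 1297 and 39.9 CPM in malathion replicates 1, 2 and 3, against 1090.4, 1426 and 62.4 CPM in control replicates 1, 2 and 3. Electron carriers and coenzyme Q genes were split 8 higher to 5 lower with 0 called (median 0.29). CYCS, which encodes cytochrome c, stood at 174, 156 and 0.969 CPM after malathion, against 165, 111 and 1.63 CPM in control. ETFA, a subunit of the flavoprotein that passes electrons from fatty acid oxidation to coenzyme Q, stood at 1299.8, 1064 and 10.1 CPM after malathion, against 1077, 272 and 4.75 CPM in control. CYCS and ETFA were thus lower in control replicate 2 than in malathion replicates 1 and 2 and control replicate 1. Others of that list went the other way, as 4 of the 13 tested were highest in control replicate 2. PDSS2, for instance, stood at 35.4 CPM there, against 5.25 to 7.89 CPM in those libraries. Of the 54 tested subunit genes, 38 had their highest value in control replicate 2. Regulators of respiratory gene expression were split 2 higher to 6 lower with 0 called (median −0.53). TFAM, which packages and transcribes mitochondrial DNA, stood at 0.813, 0.288 and 0.567 CPM after malathion, against 2.05, 284 and 0.475 CPM in control, nearly all in control replicate 2. GABPA, a transcription factor of nuclear respiratory genes, stood at 183, 178 and 20.1 CPM after malathion, against 159.9, 95.2 and 589 CPM in control. ATP5IF1, the inhibitor of the ATP synthase, stood at 3.06, 2.45 and 0.449 CPM after malathion, against 3.96, 24.8 and 0.373 CPM in control.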

How the data were processed

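RNA of 6 libraries of pig oocytes was amplified by a modified Smart-seq2 protocol, which as published marks neither molecules nor strand, and a TruSeq DNA kit was used for library construction, per the labels' protocols. The deposited files hold read counts per Ensembl gene for 1 library each. STAR 2.5.3a, HTSeq 0.9.1 and DESeq2 1.20.0 are named in the submitters' processing notes. Genome build, annotation and strand setting are not given in the sources used here. The 5 HTSeq rows for reads given to no gene held 36.7% to 42.6% of a file and were kept out. Reads with more than 1 alignment were 2.45% to 8.37%, so genes with near-identical copies or processed pseudogenes are uncertain, as are overlapping genes. A name table matched 14857 of 25880 identifiers.

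CPM used the sum of gene counts. Malathion was compared with control with edgeR 4.0.16 (R 4.3.3, limma 3.58.1, DESeq2 1.42.0 for alternatives), quasi-likelihood F test, TMM factors (0.138 to 3.59, lowest in the replicate 3 libraries), filterByExpr (minimum count 10, minimum total 15), two-sided, Benjamini-Hochberg over 10678 genes, threshold 0.05. Fold changes rest on TMM factors and do not follow from the CPM printed. Standard errors came from the F statistic. For summed CPM the test was an exact permutation test, two-sided. With the replicate block it was an exact sign-flip test on the log2 ratios of same-numbered pairs. Log2 ratios between libraries used a pseudocount of 1 CPM, and ratios given as times used none. Intervals and limits cover counting error only; the sum of complex III in control replicate 3, for instance, had a Wilson 95% interval of 0.466 to 1.09 CPM. The fit was tested on simulated data in which each gene had a shared mean level in all libraries, apart from the changes put in. The simulation held no libraries like replicates 3 or control replicate 2, so it cannot tell how the fit handles those.

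Same-numbered libraries deviated together from their group means (r = 0.466, 0.467 and 0.573 across genes for replicates 1, 2 and 3), so the number was also used as a block. Malathion replicate 2 with control replicate 1 (r = 0.457) and malathion replicate 1 with control replicate 2 (r = 0.375) came close, while pairs of a replicate 3 with another number were at −0.459 to −0.553. The correlations thus set replicates 3 apart but do not tell numbers 1 and 2 from each other. Their meaning is not given in the labels. Members, gene lists and tests were chosen with earlier results of these data known. Named genes were fixed by rule as core subunits, tissue isoforms, and the 2 members of each complex with the smallest p and the 2 with the highest mean CPM. NDUFA5, NDUFA8, NDUFAB1, NDUFB6, NDUFB8, NDUFB10, NDUFB11, NDUFS4, UQCR10, UQCR11, COX7B, COX7C, ATP5PB, ATP5PF, ATP5PO, ATP5ME, ATP5MK and the assembly, carrier and regulator genes were named after their values were seen. Fold changes are printed for the 2 smallest p of each complex and for COX7A2L. Values of 1 member are not reported here, though it stays in the counts, sums and medians. No sequences are shown.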

Additional observations from a re-analysis of the deposited data

How the results depend on the processing

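No subunit gene was called under any of the settings tried, which were other scalings, no filter on low counts, DESeq2 (no adjusted p for 6 members), limma-voom, the replicate block, and leaving out libraries. Over all genes, 60 were called with no filter on low counts, and 3 each without malathion replicate 1 and without malathion replicate 2. Over all settings, the sign turned for 19 of 154 fold changes of single genes, 16 of 72 ratios of sums and 15 of 84 medians. Medians and fold changes are on the log2 scale, and the cause of each shift was not tested.

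With library totals alone the median was −0.64 over all members, −0.74 for complex I, −0.64 for complex III and −0.62 for complex V, SDHB stood at 0.077, COX6A1 at 0.66 and NDUFC2 at −6.02. With limma-voom it was −0.14 over all members, 0.34 for complex III and −0.20 for complex V, and UQCRQ stood at 0.48. With TMM factors the log2 ratio of sums was −1.07 over all members and −3.46 for complex I, and turned to −0.68 for complex II and 0.080 for complex V. With median-of-ratios size factors it was −1.15 over all members, −3.61 for complex I, −0.83 for complex II and 0.020 for complex V. Without both replicate 3 libraries the median of complex V was −0.36, COX6A1 stood at −1.57, COX7A2L at 0.21 and SDHB at 0.62. The groups did not overlap for 9 of 54 members there, against 25.6% of all genes tested.

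With the replicate block, the median was −0.22 over all members and −0.42 for complex V. For sums the block value was the mean log2 ratio of same-numbered pairs, a different measure from the log2 ratio of group means. It stood at −0.95 for complex II and 0.077 for complex III, opposite in sign to the main ratios. Malathion was lower in complex II, and higher in complex III, only in replicates 3. COX6A1 stood at 0.30 and NDUFC2 at −1.85. The block changed no call.

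Leaving out both replicate 3 libraries and control replicate 2 was chosen after seeing the data. The median was then 0.09 over all members, 0.10 for complex I, 0.06 for complex IV and −0.12 for complex V. The sums turned to 0.12 for complex I and 0.09 for complex III. Fold changes turned to 0.79 for ATP5MC1, −0.25 for COX6A1, 0.17 for COX6A2, 0.10 for NDUFC2, 0.04 for SDHB and 0.05 for UQCRQ.

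Leaving out each library in turn, the median ran from −0.83 to 0.34 over all members, −0.67 to 0.33 for complex I, −0.33 to 0.54 for complex II, −0.78 to 0.60 for complex III, −1.02 to 0.27 for complex IV and −1.19 to 0.28 for complex V. The log2 ratio of sums ran from −0.74 to −0.07 over all members, −1.84 to −0.86 for complex I, −0.51 to 0.62 for complex II, −1.38 to 0.51 for complex III, −0.37 to 0.025 for complex IV and −0.73 to 0.43 for complex V. Fold changes ran from −3.85 to 0.13 for ATP5F1D, −3.49 to 0.70 for ATP5MC1, −1.08 to 6.32 for COX6A1, −4.38 to −1.01 for COX6A2, −2.37 to 1.97 for COX7A2L, −6.47 to −1.36 for NDUFA9, −10.33 to −0.46 for NDUFC2, −2.77 to 0.13 for SDHB, −0.0059 to 0.89 for SDHC, −2.06 to 0.11 for UQCRC2 and −1.96 to 0.79 for UQCRQ.

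For counting error only, depth sets the limit that a count of 0 allows, from 0.0709 to 0.116 CPM. The lowest limit was that of malathion replicate 3, so this limit does not follow how many genes a library detected. The replicate 3 libraries were the deepest of their groups in gene counts and detected the fewest genes. The cause of their low values was not tested.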
